A study of Rattus norvegicus with 8 samples.

Results

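The auxiliary subunits of voltage-gated calcium channels were followed here across the somata and the processes of rat hippocampal neurons. The members were the 7 genes Cacnb1, Cacnb2, Cacnb3 and Cacnb4, which encode the β subunits, and Cacna2d1, Cacna2d2 and Cacna2d3, which encode α2δ subunits. They were taken by symbol from the 28909 gene symbols of the count table, and all 7 passed the filter on low counts (over 20 reads, in 2 or more libraries), which kept 14309 genes. The remaining α2δ gene, Cacna2d4, was not a member and had between 0 and 6 reads per library.

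Primary hippocampal neurons of Sprague-Dawley rats were grown on filter inserts, so that processes passed through the pores while somata stayed on the upper side. Picrotoxin (PTX), an antagonist of the GABA-A receptor that raises network activity, was applied for 48 h, from day 18 to day 20 in vitro, and control cultures were mock-treated. Ribosome-depleted total RNA of each compartment was sequenced as 2 libraries for each of 4 conditions: somata control, somata PTX, processes control and processes PTX, 8 libraries in all. Axons, dendrites and the processes of other cells that crossed the filter were not separated. The labels do not say whether the 2 libraries of a condition came from separate cultures, and the study's methods state only in general that its plots give the number of independent experiments. The p-values measure the spread between these libraries, part of which may be technical.

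A voltage-gated calcium channel is built around a pore subunit. The cytosolic β subunits bind the intracellular linker of high-voltage-activated pore subunits, help them reach the surface and shape their gating. The α2δ subunits lie outside the cell, are anchored to the membrane and promote channel trafficking and presynaptic function, and Cacna2d1 and Cacna2d2 encode the binding sites of gabapentin. In neurons these channels admit the calcium that triggers transmitter release and activity-dependent gene expression.

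Libraries held 12290890 to 18455662 counts, but mitochondrial symbols took 68.5 to 72.5% of them in processes and 22.6 to 26.7% in somata. Between 4702054 and 5491237 counts were left in process libraries and 9517542 to 11227599 in somata, so the members were measured with fewer reads in processes. Levels are given as CPM, counts scaled to a common library size with TMM factors, which set the typical gene equal between libraries. Because transcript lengths were not used, a level is compared between conditions and not between genes. Neurons were present in every library, with pan-neuronal markers (8 genes, among them Map2 and Snap25) summing to between 1543 and 5522 CPM. Astrocyte markers (10 genes, among them Gfap and Aqp4) summed to between 3247 and 4563 CPM in somata and to between 11524 and 15026 CPM in processes. Oligodendrocyte lineage markers (10 genes) summed to 312 to 702 CPM, 7 microglial markers to at most 2.44 CPM and 5 endothelial markers to at most 9.42 CPM, with Cldn5 at 0 in all 8 libraries. Differences below are log2 fold changes from edgeR's quasi-likelihood test with Benjamini-Hochberg adjustment over all 14309 genes, and a gene was called at an adjusted p under 0.05.

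Cacnb3, a β subunit of neuronal channels, had the largest PTX log2 fold change of the 7 members in each compartment, and it was lower in PTX libraries. In somata control it was measured at 27.7 and 30.8 CPM, and in somata PTX at 19.3 and 17.1 CPM. In processes control it was measured at 84.4 and 73.6 CPM, and in processes PTX at 43.2 and 34.8 CPM. The 4 conditions did not overlap in any library, with processes control at the top, then processes PTX, then somata control and somata PTX at the bottom. These levels rested on 403 to 786 reads per library in somata and 346 to 757 in processes. With PTX, Cacnb3 fell by 0.68 on the log2 scale in somata (standard error 0.137, adjusted p = 0.0214), to 62.3% of the control level. In processes it fell by 1.02 (standard error 0.139, adjusted p = 0.00444), to 49.2% of the control level. Of all tested genes, 2.3% had a lower log2 fold change than Cacnb3 in somata and 2.46% in processes.

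**Figure D1:**
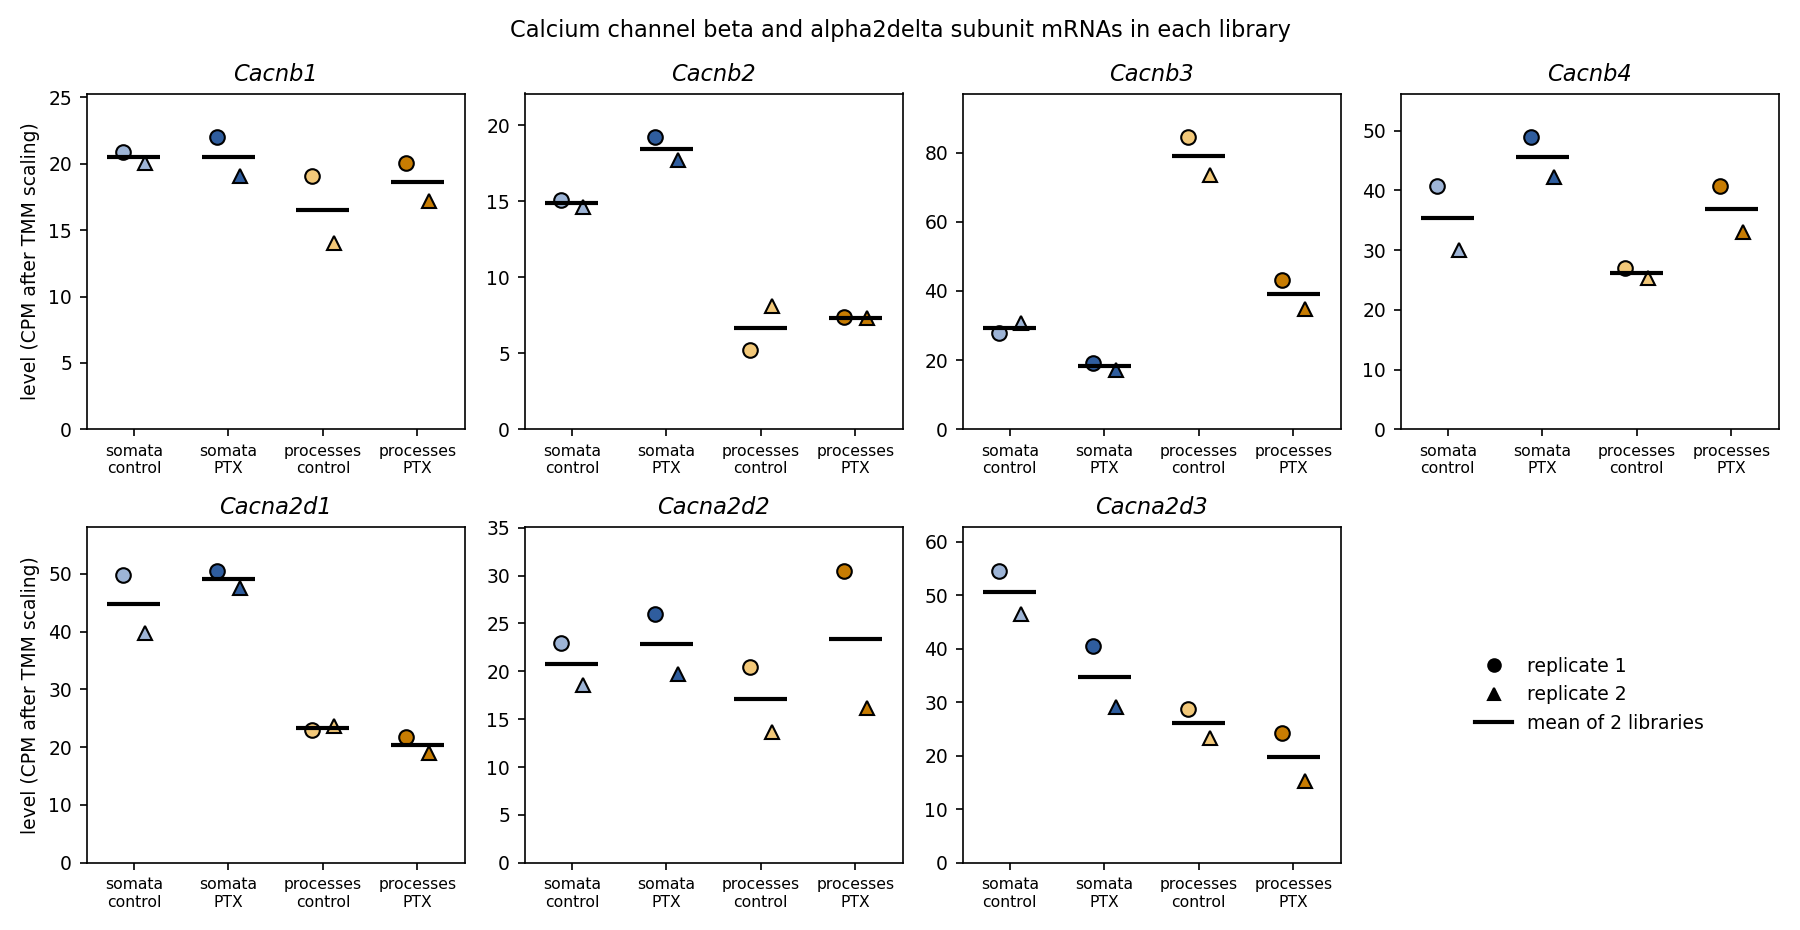
Level of each of the 7 subunit mRNAs in CPM after TMM scaling (y axis, linear and starting at 0, own range per gene) in the 4 conditions (x axis). Circles and triangles are the libraries of replicate 1 and 2, and bars are their means. Cacnb3 stands between 73.6 and 84.4 CPM in processes control and between 34.8 and 43.2 CPM in processes PTX, and its 4 conditions do not overlap, whereas the libraries of Cacnb1 and Cacna2d2 overlap between conditions next to each other in order of the mean.

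PTX called 3.59% of all tested genes in somata (2.09% higher, 1.5% lower) and 3.74% in processes (1.64% higher, 2.1% lower). Against this background, 1 of the 7 members was called in somata and 1 of 7 in processes, Cacnb3 in both, with 0 members higher. The median log2 fold change of the members was 0.13 in somata and 0.14 in processes, beside -0.01 over all tested genes in each. The 2 PTX comparisons have separate libraries but share one estimate of the spread. The call of Cacnb3 in processes was kept with each of the 8 libraries left out in turn (adjusted p from 0.00437 to 0.0459). In somata the call was lost when any of the 4 somata libraries was left out, with log2 fold changes of -0.78 to -0.60 and adjusted p = 0.0608 and 0.165 without somata control replicate 1 and 2, and 0.0677 and 0.14 without somata PTX replicate 1 and 2.

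Markers of neuron classes also moved with PTX. Excitatory neuron markers (6 genes, among them Slc17a7 and Camk2a) summed to 438 to 454 CPM in somata control and 289.7 to 309.5 CPM in somata PTX, and to 738 to 985 CPM in processes control and 521 to 522 CPM in processes PTX. The members of this list did not all move one way. In somata 3 of 6 fell and 0 rose, and in processes 3 fell, among them Camk2a from a mean of 672 to 246 CPM (-1.45, adjusted p = 0.00165), and 1 rose, Slc17a7, from 150.5 to 251 CPM (0.73, adjusted p = 0.0172). Inhibitory neuron markers (8 genes, among them Gad1 and Sst) summed to 314 to 446 CPM in somata control and 502 to 659 CPM in somata PTX, and to 163 to 209.8 CPM in processes control and 247 to 332 CPM in processes PTX, and of 7 tested 2 rose in somata and 1 in processes, with 0 that fell. This list did not move evenly either. In somata Gad1 rose from a mean of 77.6 to 137 CPM and Gad2 from 134 to 254 CPM. The log2 fold changes of Slc32a1 (-0.02), Reln (0.12), Sst (0.31), Vip (1.18) and Npy (1.27) there did not pass. Pan-neuronal markers summed to 1787 to 2023 CPM in somata control and 1543 to 1741 CPM in somata PTX, and to 5207 to 5522 CPM in processes control and 3899 to 4587 CPM in processes PTX. Of these 8 genes 1 fell in somata and 0 were called in processes, with medians of -0.26 and -0.38. Astrocyte markers summed to 13414 to 15026 CPM in processes control and 11524 to 12775 CPM in processes PTX, where 0 of 10 were called, and their ranges overlapped between treatments in somata, where 1 of 10 fell. The part of these shifts in the fall of Cacnb3 was not tested. In bulk libraries, fewer cells of a type and less RNA per cell cannot be told apart.

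The upstream sequences of Cacnb3 and of Cacna2d3 are shown because these 2 members had the lowest PTX log2 fold changes in both compartments, with values for Cacna2d3 given further on. They are the 250 bases before the annotated start in RefSeq (build GRCr8, later than the Rnor_6.0 build of the counts), chr7:131666301-131666550 on the plus strand and chr16:4918900-4919149 on the minus strand, printed 5′ to 3′ along the gene, with each GC box (GGGCGG on either strand, where neighbouring boxes may overlap) in capitals.
Cacnb3: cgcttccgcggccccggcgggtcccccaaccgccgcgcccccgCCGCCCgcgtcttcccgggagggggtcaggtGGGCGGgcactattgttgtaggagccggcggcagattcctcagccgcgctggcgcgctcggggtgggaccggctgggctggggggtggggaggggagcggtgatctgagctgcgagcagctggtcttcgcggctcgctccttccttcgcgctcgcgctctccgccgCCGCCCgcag
Cacna2d3: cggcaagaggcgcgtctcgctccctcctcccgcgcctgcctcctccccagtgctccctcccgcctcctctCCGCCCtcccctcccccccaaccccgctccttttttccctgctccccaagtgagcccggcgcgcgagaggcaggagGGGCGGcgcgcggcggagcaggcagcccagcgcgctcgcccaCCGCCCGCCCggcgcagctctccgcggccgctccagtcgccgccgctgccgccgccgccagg
The Cacnb3 sequence is 76.4% G or C and holds 3 GC boxes, and that of Cacna2d3 is 78.8% G or C and holds 4. Other members were alike, with Cacna2d2 at 76.8% and 2 boxes, and the Cacna2d1 entries at 76.8 to 78.8% and 3 to 7 boxes. For Cacnb2 the first start was at 73.2% with 2 boxes and the second at 45.6% with 0. Over all 33469 entries the median was 51.2% G or C, and 30.5% held at least 1 GC box in the same 250 bases. Of these entries 97.4% had a lower G or C content than the Cacnb3 window and 98.5% a lower one than the Cacna2d3 window. Motif shares over all entries were not matched for G or C content. The letters GCGNGGGCG, a motif of the Egr family of activity-induced factors that shares its core with the GC box, were found once for Cacnb3, not for Cacna2d3, and in 4.29% of all entries on either strand. They were also found for Cacna2d1 and Cacna2d2. A part of these letters in the response to PTX was not tested. The letters TGACG of the cAMP response element were in neither window and in 18.2% of all entries. An entry with an upstream sequence was found for 5 of the 7 members, those other than Cacnb1 and Cacnb4.

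Cacnb4 encodes the β subunit that is lost in the ataxic and epileptic lethargic mouse. It was measured at 40.8 and 30 CPM in somata control and at 48.9 and 42.3 CPM in somata PTX. In processes it was measured at 27 and 25.4 CPM in control and at 40.8 and 33.1 CPM in PTX libraries. Both PTX libraries were above both control libraries in each compartment, but the log2 fold changes of 0.37 in somata (95% interval 0.02 to 0.71, adjusted p = 0.279) and 0.49 in processes (95% interval 0.11 to 0.88, adjusted p = 0.172) did not pass. Replicate 1 was above replicate 2 in all 4 conditions. In a second fit, which added the replicate number to the model as a block, both differences passed, at 0.38 (adjusted p = 0.00748) and 0.49 (adjusted p = 0.00603). Leaving out 1 library in the fit without the block moved the value in somata to 0.60 without somata control replicate 1, 0.15 without somata control replicate 2 and 0.25 without somata PTX replicate 1.

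Cacnb2, the main β subunit of the heart that neurons also express, was measured at 15.1 and 14.6 CPM in somata control and at 19.2 and 17.7 CPM in somata PTX. In processes it had only 47 to 73 reads per library, with 5.24 and 8.1 CPM in control and 7.35 and 7.34 CPM in PTX libraries. The somata libraries of the 2 treatments did not overlap, and the log2 fold change of 0.32 (95% interval -0.02 to 0.65, adjusted p = 0.368) did not pass. In processes the PTX libraries lay between the 2 control libraries, with a log2 fold change of 0.14 (95% interval -0.32 to 0.61, adjusted p = 0.803).

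Cacnb1 encodes the β subunit of skeletal muscle channels and has brain isoforms. Its level was 20.9 and 20.1 CPM in somata control, 22 and 19.1 CPM in somata PTX, 19.1 and 14 CPM in processes control and 20.1 and 17.2 CPM in processes PTX. With the conditions ordered by their mean, the libraries of each overlapped those of the next. Both libraries of processes control lay below both of somata control. Its PTX log2 fold change was 0.00 in somata (95% interval -0.32 to 0.33, adjusted p = 0.995) and 0.17 in processes (95% interval -0.21 to 0.55, adjusted p = 0.691).

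Cacna2d3, an α2δ subunit, had lower mean levels with PTX in both compartments. It was measured at 54.6 and 46.6 CPM in somata control and at 40.5 and 29.1 CPM in somata PTX. In processes it was measured at 28.8 and 23.4 CPM in control and at 24.3 and 15.3 CPM in PTX libraries. The somata groups did not overlap, while in processes replicate 1 of PTX lay above replicate 2 of control. The log2 fold changes of -0.54 in somata (95% interval -0.98 to -0.09, adjusted p = 0.211) and -0.40 in processes (95% interval -0.92 to 0.11, adjusted p = 0.435) did not pass. With the replicate block they passed, at -0.55 (adjusted p = 0.000276) and -0.41 (adjusted p = 0.0445). With 1 library left out of the fit without the block, the value ranged in somata from -0.80 (without somata PTX replicate 1) to -0.33 (without somata PTX replicate 2), and in processes from -0.77 (without processes PTX replicate 1) to -0.10 (without processes PTX replicate 2), and it was -0.25 there without processes control replicate 1.

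Cacna2d1, a gabapentin receptor, was measured at 49.8 and 39.8 CPM in somata control and at 50.5 and 47.5 CPM in somata PTX, where the groups overlapped. In processes it was at 23 and 23.6 CPM in control and at 21.8 and 19 CPM in PTX libraries, which did not overlap. Neither PTX log2 fold change passed, with 0.13 in somata (95% interval -0.15 to 0.41, adjusted p = 0.723) and -0.19 in processes (95% interval -0.52 to 0.14, adjusted p = 0.583).

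Cacna2d2, mutated in the ducky mouse, was measured at 23 and 18.6 CPM in somata control, 26 and 19.7 CPM in somata PTX, 20.5 and 13.7 CPM in processes control and 30.5 and 16.2 CPM in processes PTX. Replicate 1 was the higher library in each of the 4 conditions, and all neighbouring conditions overlapped. This gave the widest intervals of the 7 members, with a PTX log2 fold change of 0.14 in somata (95% interval -0.43 to 0.70, adjusted p = 0.878) and 0.44 in processes (95% interval -0.21 to 1.08, adjusted p = 0.513).

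With the replicate block, 3 of 7 members were called in somata and 3 of 7 in processes, Cacnb3, Cacnb4 and Cacna2d3 in each. The block called 14% of all tested genes in somata and 11.2% in processes, so the background rose as well.

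**Figure D2:**
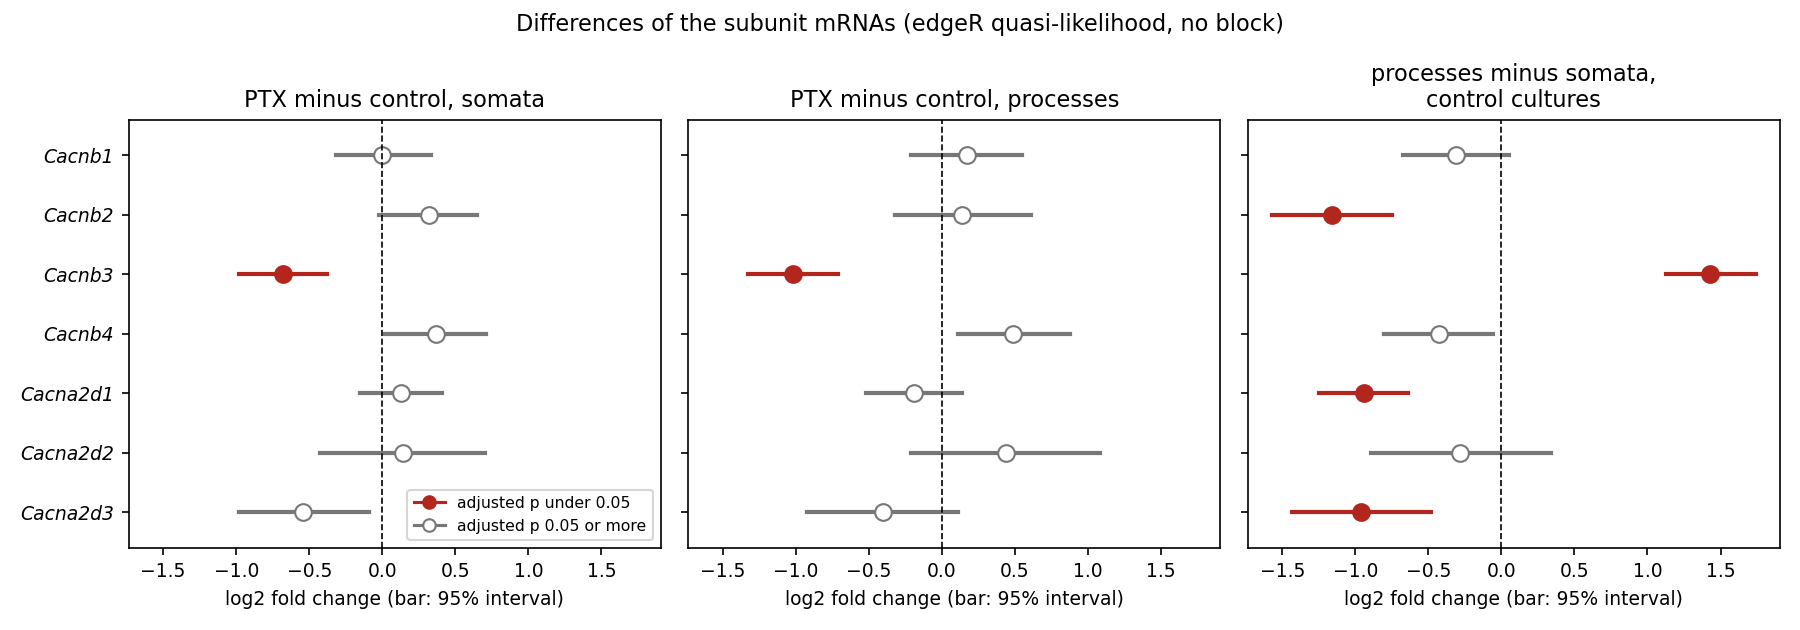
Log2 fold change of each subunit mRNA (x axis) with its 95% interval (bars) for PTX against control in somata, PTX against control in processes, and processes against somata in control cultures, from the fit without a block. Filled red symbols passed at an adjusted p under 0.05. Cacnb3 passed in all 3 panels, below 0 with PTX (-0.68 and -1.02) and above 0 between compartments (1.43), and Cacnb2, Cacna2d1 and Cacna2d3 passed below 0 between compartments.

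The compartments differed for more of the members. In control cultures, Cacnb3 was 2.7-fold higher in processes than in somata, a log2 fold change of 1.43 (95% interval 1.13 to 1.74, adjusted p = 1.28e-05). Lower in processes were Cacnb2 by a log2 fold change of -1.16 (95% interval -1.57 to -0.75, adjusted p = 0.000497), Cacna2d3 by -0.96 (95% interval -1.43 to -0.48, adjusted p = 0.00422) and Cacna2d1 by -0.94 (95% interval -1.25 to -0.64, adjusted p = 0.000266). Of 7 members 4 were called, 1 higher and 3 lower in processes, where 47.7% of all tested genes were called (25.8% higher and 21.9% lower). For the other members the log2 fold change was -0.43 for Cacnb4 (adjusted p = 0.0539), -0.31 for Cacnb1 (adjusted p = 0.141) and -0.28 for Cacna2d2 (adjusted p = 0.435). Under the replicate block Cacnb4 (adjusted p = 0.002) and Cacnb1 (adjusted p = 0.0362) were also called lower, giving 6 of 7 members beside 57.8% of all genes.

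PTX cultures gave the same calls from other libraries. Cacnb3 was higher in processes by a log2 fold change of 1.09 (adjusted p = 0.000108), and Cacnb2 (-1.33, adjusted p = 0.000142), Cacna2d1 (-1.27, adjusted p = 3.33e-05) and Cacna2d3 (-0.82, adjusted p = 0.0102) were lower. These were again 4 of 7 members, 1 higher and 3 lower, beside 49.8% of all tested genes (25.7% higher and 24% lower). Cacnb4 was at -0.31 (adjusted p = 0.137) and passed with the block (adjusted p = 0.0122), which called 5 of 7 members and 59.5% of all genes. Cacnb1 at -0.14 (adjusted p = 0.477) and Cacna2d2 at 0.02 (adjusted p = 0.956) did not pass. The call of Cacna2d3 was lost without somata PTX replicate 1 (-0.56, adjusted p = 0.0842) or without processes PTX replicate 2 (-0.52, adjusted p = 0.103).

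These compartment differences are relative to the typical gene. Scaled by library size only, the log2 fold change of Cacnb3 turned to -0.38 in control and -0.74 in PTX cultures, while the median of all genes moved from -0.05 to -1.86 and -1.87. The RefSeq gene span of Cacnb3 overlaps that of the tubulin gene Tuba1c, and the strand setting of the counting is not given in the sources used here. Tuba1c was at 194 to 203 CPM in somata control and 256 to 318 CPM in processes control, a log2 fold change of 0.53 (adjusted p = 0.00599), and its PTX log2 fold changes were -0.21 in somata (adjusted p = 0.498) and -0.30 in processes (adjusted p = 0.267), the latter passing with the replicate block (adjusted p = 0.0448). Spans of Cacnb1 and Cacna2d3 overlap those of the ribosomal protein gene Rpl19 and of Lrtm1. In control cultures Rpl19 was at a mean of 167 CPM in processes and 51.2 CPM in somata (log2 fold change 1.71, adjusted p = 2.94e-06). Cacnb1, at means of 16.5 and 20.5 CPM, went the other way (-0.31, adjusted p = 0.141). The summed astrocyte and pan-neuronal markers were both higher in processes than in somata, at 13414 to 15026 against 4168 to 4563 CPM and at 5207 to 5522 against 1787 to 2023 CPM in control cultures. The sums hide markers that go the other way, since 5 of 10 astrocyte markers were called higher and 2 lower in processes, and of 8 pan-neuronal markers 3 were higher, among them Map2 at a mean of 4609 against 936 CPM, and 3 lower, with a median of -0.06. The part of these markers in the compartment differences was not tested.

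For no member did the response to PTX pass as unequal in the 2 compartments. The interaction term (log2 fold change in processes less the one in somata) was -0.34 for Cacnb3 (95% interval -0.77 to 0.09, adjusted p = 1), so the larger fall in processes was not told apart from that in somata at this depth. The other 6 members had interactions of -0.32 to 0.30, each with an adjusted p of 1. The quasi-likelihood test called 0% of all tested genes, 572 having an unadjusted p under 0.05, while the likelihood ratio test and DESeq2 called 4 genes each.

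The make-up of the β family can be read within each library, where scaling between libraries plays no part. Cacnb3 took 29.4% ± 4.07 (SD, n = 2) of the reads of the 4 β genes in somata control and 17.7% ± 0.0491 in somata PTX. In processes its share was 61.5% ± 0.981 in control and 38.2% ± 0.787 in PTX libraries. Cacnb4 took 35.2% ± 5.37 in somata control, 44.4% ± 0.482 in somata PTX, 20.4% ± 0.753 in processes control and 36.2% ± 0.564 in processes PTX. Cacnb3 thus held a majority of the β reads only in the processes of control cultures. It still had the largest share in processes PTX, at 38.8 and 37.6% beside 36.6 and 35.8% for Cacnb4 in replicate 1 and 2. In somata control replicate 2 it was also ahead, at 32.3% beside 31.4% for Cacnb4.

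Counted as Cacnb3 reads per Cacnb4 read, the 2 libraries gave 0.679 and 1.03 in somata control and 0.395 and 0.403 in somata PTX. In processes they gave 3.13 and 2.9 in control and 1.06 and 1.05 in PTX libraries. The ratio was lower in both PTX libraries than in both control libraries of the same compartment. No test is given for shares and ratios, which count reads and not molecules, since the lengths of the transcripts differ.

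**Figure D3:**
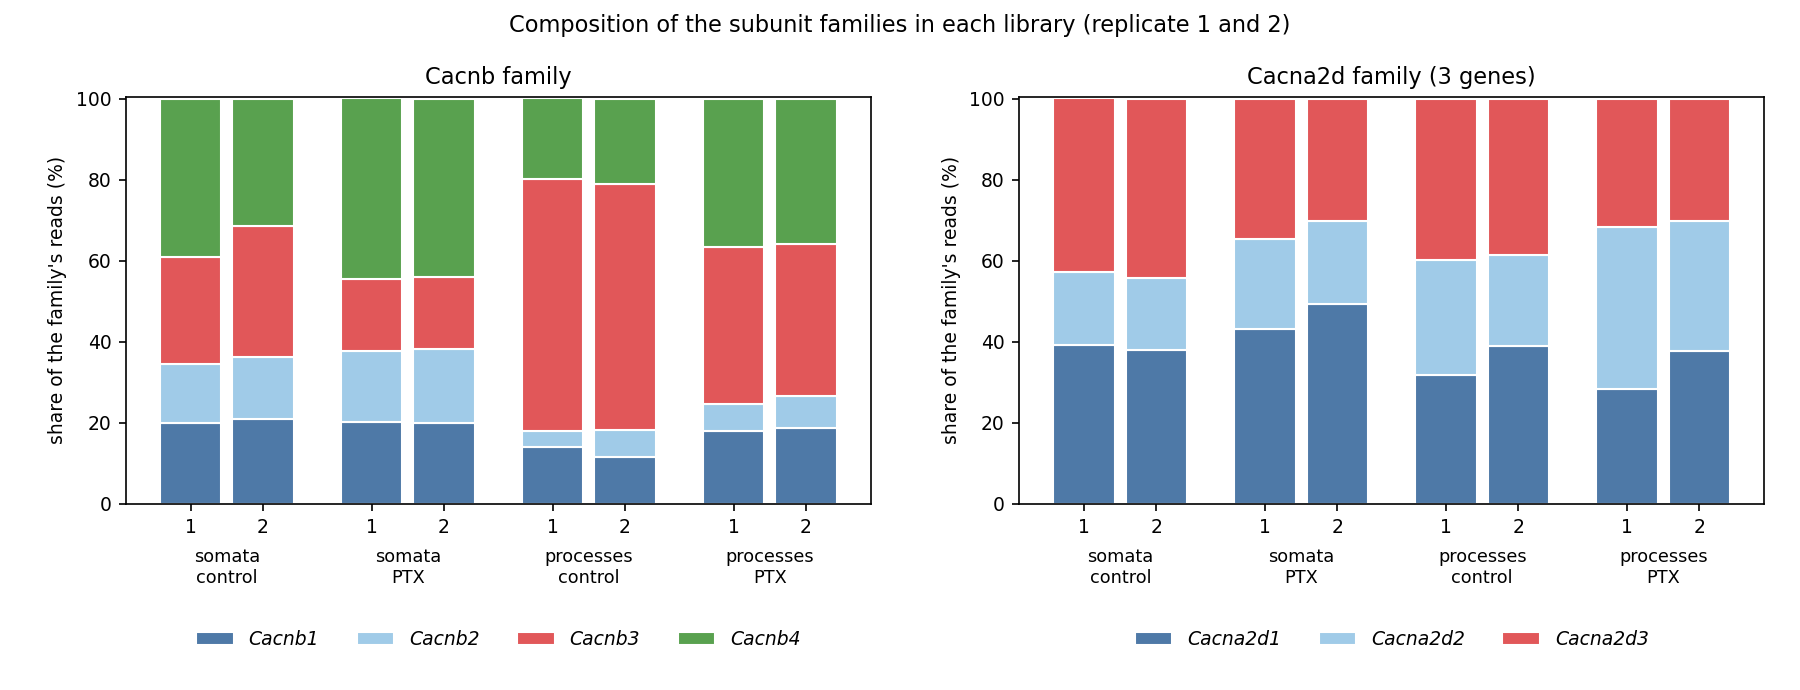
Share of the reads of the 4 Cacnb genes (left) and of the 3 Cacna2d genes (right) taken by each gene in percent (y axis, from 0 to 100), as stacked bars for each of the 8 libraries (x axis). The Cacnb3 segment takes 60.8 to 62.2% in processes control and 37.6 to 38.8% in processes PTX, and the Cacna2d3 segment is smaller in the PTX libraries of each compartment.

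Within the α2δ family, Cacna2d3 took 43.6% ± 1.06 (SD, n = 2) of the reads in somata control and 32.4% ± 3.1 in somata PTX, and 39.2% ± 0.936 in processes control and 31% ± 1.03 in processes PTX. Cacna2d2 took 17.9% ± 0.215 and 21.3% ± 1.22 in somata, and 25.5% ± 4.08 and 35.9% ± 5.48 in processes, in control and PTX libraries. Cacna2d1 took 38.5% ± 0.842 and 46.2% ± 4.32 in somata, and 35.3% ± 5.01 and 33% ± 6.51 in processes. The share of Cacna2d3 was lower and that of Cacna2d2 higher in both PTX libraries of each compartment, and that of Cacna2d1 overlapped between treatments in processes. In both families the shares add up to the whole, so a lower share of any gene raises those of the others. The level of Cacna2d2 itself was not called with PTX in either compartment.

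The pore subunits, which form the channel itself, had 8 of 10 genes tested. With PTX in somata 3 fell and 0 rose, with log2 fold changes of -0.60 for the L-type gene Cacna1c (adjusted p = 0.0102) and of -0.73 and -0.55 for the T-type genes Cacna1g (adjusted p = 0.0118) and Cacna1h (adjusted p = 0.0218). In processes 4 fell and 0 rose, among them Cacna1h (-0.78, adjusted p = 0.00794), Cacna1c (-0.59, adjusted p = 0.0203) and the T-type gene Cacna1i (-0.69, adjusted p = 0.0369). The median log2 fold change of the 8 was -0.46 in somata and -0.55 in processes, and 5 were called in each compartment with the block. Of all tested genes, PTX called 3.59% in somata and 3.74% in processes, and 14% and 11.2% with the block. The same shares stand beside the PTX counts of the lists that follow. T-type pores do not need a β subunit to reach the surface, whereas Cacna1c does.

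A list of proteins that bind β subunits, together with the RIM-binding protein gene Rimbp2, had 7 of 9 genes tested. In somata 3 rose and 0 fell, Rem2 (1.13, adjusted p = 0.00861) and Gem (0.92, adjusted p = 0.0273), small GTPases that inhibit channels through the β subunit, and Rimbp2 (0.52, adjusted p = 0.0414), a presynaptic scaffold. In processes 1 rose and 0 fell, Gem (1.08, adjusted p = 0.0334). The medians were 0.38 and 0.17. The block gave 4 that rose and 1 that fell in somata, and 1 of each in processes.

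The γ subunits and their relatives that carry AMPA receptors had 6 of 8 genes tested, with medians of -0.13 and -0.17. None passed in somata, where the most abundant, Cacng4, had a log2 fold change of -0.38 (adjusted p = 0.134), and in processes 1 fell, Cacng2, also called stargazin (-1.11, adjusted p = 0.0132). The block called 2 higher and 2 lower in somata, and 1 of each in processes. Partners and relatives of α2δ had 5 of 6 genes tested and 0 called in either compartment, with medians of -0.11 and -0.07, and the most abundant, the endocytic receptor Lrp1, was at -0.11 (adjusted p = 0.846) and 0.17 (adjusted p = 0.658). The block called 1 lower in somata. Calmodulin and Stac adaptor genes had 5 of 6 tested and 0 called, with medians of 0.05 and -0.02. With the block 2 of these rose in somata, Stac (1.34, adjusted p = 0.00319) and Stac2 (0.79, adjusted p = 0.000205). In processes 1 rose with the block, Stac2 (0.80, adjusted p = 0.000153). Stac had only 6 to 63 reads per library.

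**Figure D4:**
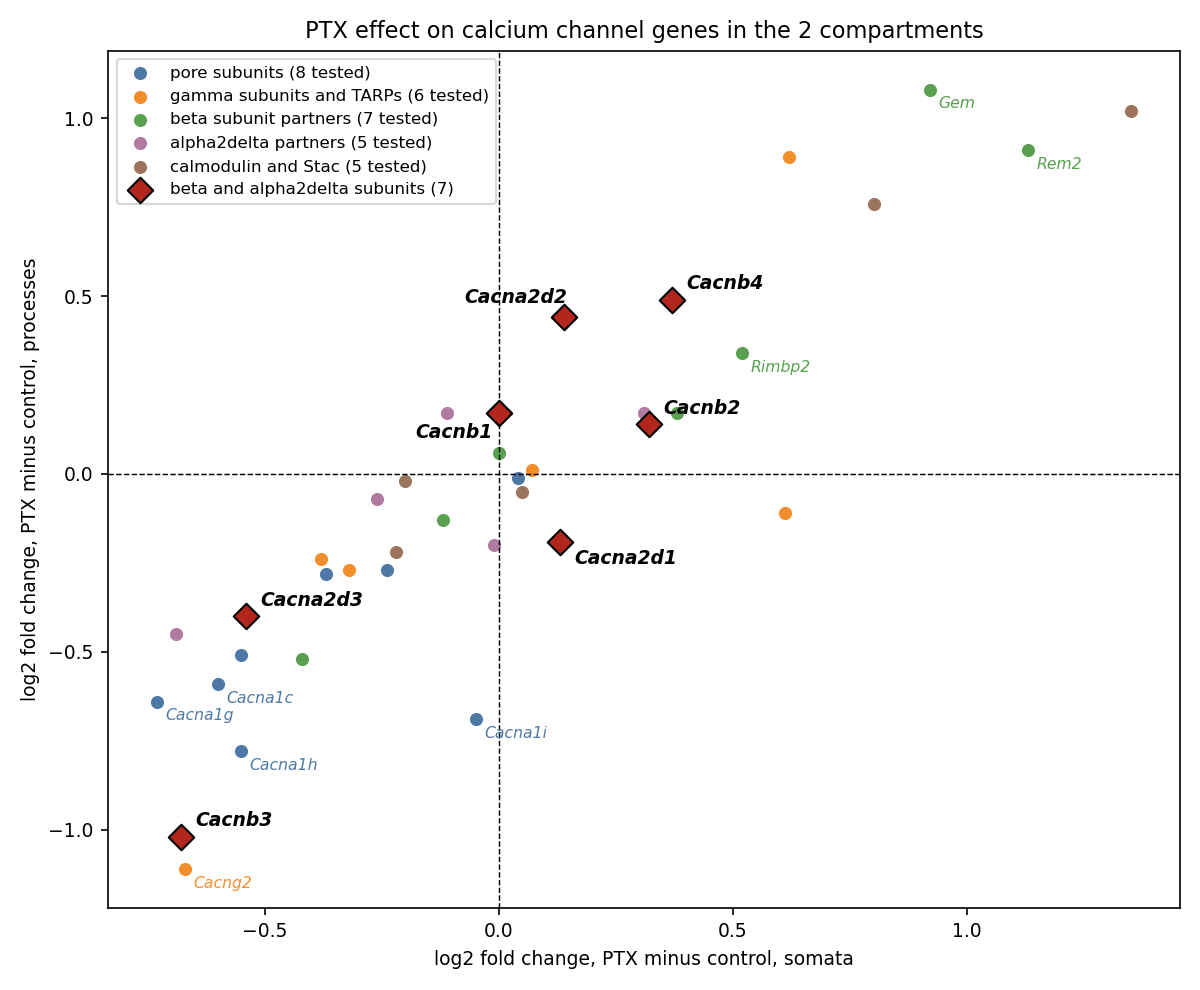
PTX log2 fold change in somata (x axis) and in processes (y axis) of the 7 subunit genes (red diamonds) and of the tested genes of 5 channel lists (circles, coloured by list). Each point is 1 gene, named where it is a member or is named in the text for a call in the fit without the block. Cacnb3 lies at -0.68 and -1.02, below the named pore subunits in processes, and Gem and Rem2 lie at the upper right.

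Between compartments of control cultures, the pore subunits gave 1 gene higher and 4 lower in processes, the γ list 3 and 2, the β partners 3 and 2, the α2δ partners 0 and 4, and the calmodulin and Stac list 3 and 1, beside the shares of all genes given above.

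For each member, up to 2 genes with the most similar log2 CPM over the 8 libraries were taken from 10207 genes whose mean reached 5 CPM. These correlations describe 8 libraries that share compartment and treatment and are given with no test. Cacnb3 was most like Ercc5 (Pearson r = 0.987) and Cdk9 (r = 0.987), and Cacnb4 most like Far2 (r = 0.995) and Arpp21 (r = 0.994). Cacnb2 followed Panx1 (r = 0.998) and Nsfl1c (r = 0.996), and Cacnb1 followed Cd44 (r = 0.991) and Sil1 (r = 0.981). For the α2δ genes they were Sesn1 (r = 0.995) and Gpr85 (r = 0.993) for Cacna2d1, AABR07068316.1 (r = 0.981) and Ints4 (r = 0.964) for Cacna2d2, and Dnm3 (r = 0.999) for Cacna2d3. A high r tells of a like pattern and not of a like size of change, as the log2 fold change with PTX in processes was -1.02 for Cacnb3, -0.45 for Ercc5 and -0.33 for Cdk9.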

How the data were processed

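The authors trimmed and aligned the reads, counted them per gene with featureCounts on rat build Rnor_6.0 and summed them by symbol. The labels name STAR as the aligner and the methods name Subread. The deposited values used here are these counts, whole numbers without normalization, 2 libraries per condition. The deposited tables of the authors' PTX comparisons (log fold changes, log CPM, likelihood ratios, p-values) were not used.

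Genes passing a filter of over 20 reads, in 2 or more libraries, were fitted with 1 coefficient per condition (edgeR 4.0.16, R 4.3.3, TMM, glmQLFit and glmQLFTest, Benjamini-Hochberg, threshold 0.05), checked on simulated counts. Standard errors are the log2 fold change over the root of F. Likeness used log2 CPM with a prior count of 2. This main fit had no block, so its calls do not use a pairing of replicates. The replicate numbers, whose meaning the labels do not give, were treated as pairing only in the alternative fit with the block. Differences between replicate 2 and 1 correlated between all 6 pairs of conditions (r = 0.274 to 0.54, 14309 genes). The block lowered the coefficient of variation from 11.5% to 6.77%. As alternatives, DESeq2 1.42.0, the likelihood ratio test, other scalings and filters, the block, the 4 libraries compared and leaving out each library were run.

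Members and lists were chosen with earlier results of these data known. Named are all members, at most 3 called genes per list and comparison (the smallest adjusted p) or else the most abundant, and the 2 genes most like each member. Some single genes under this rule are not reported here. Tuba1c, Rpl19, Stac, Stac2 and the single inhibitory neuron markers were added after their values were seen. RefSeq tables (GRCr8) gave gene spans and upstream sequences. Reads of overlapping genes are of uncertain origin.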

Additional observations from a re-analysis of the deposited data

How the results depend on the processing

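Of 588 values of the members under alternatives, 532 kept direction and side of the threshold, 6 lost a call, 25 gained one and 25 changed sign. The sign changes outside the leaving out of libraries were those of Cacnb1 with PTX in somata (-0.02 with upper quartile scaling and 0.00 with the replicate block), of Cacnb3 between compartments with library size only (-0.38 in control and -0.74 in PTX cultures), and of Cacna2d2 between compartments of PTX cultures (-1.82 with library size only, -0.16 with upper quartile scaling and -0.05 with at least 10 reads in every library). With each library left out in turn, the log2 fold change with PTX in somata ranged from -0.11 to 0.09 for Cacnb1, -0.03 to 0.30 for Cacna2d1 and -0.08 to 0.31 for Cacna2d2. In processes it ranged from -0.04 to 0.41 for Cacnb1, -0.14 to 0.49 for Cacnb2 and -0.08 to 0.83 for Cacna2d2, and between compartments of PTX cultures from -0.50 to 0.42 for Cacna2d2. The interaction ranged from -0.04 to 0.41 for Cacnb1, -0.46 to 0.17 for Cacnb2, -0.11 to 0.34 for Cacnb4, -0.22 to 0.69 for Cacna2d2 and -0.23 to 0.44 for Cacna2d3. The cause was not tested. Without a filter, Cacna2d3 with PTX in somata (-0.53, adjusted p = 0.00403) and Cacnb4 with PTX in processes (0.50, adjusted p = 0.0236) were also called. The difference of Cacnb4 between compartments of control cultures, at an adjusted p of 0.0539, passed with the likelihood ratio test (adjusted p = 0.0397), upper quartile scaling (0.00912) and no filter (0.0081), but not with DESeq2 (0.067).

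The count of called genes for PTX in somata was 513, and 972 with the likelihood ratio test, 1141 with no filter, 2002 with the replicate block and 117 to 568 with a library left out, lowest without somata control replicate 2. Leaving out somata control replicate 1 gave 198, and somata PTX replicate 1 or 2 gave 173 or 237. For PTX in processes it was 535, and 949, 1129 and 1601 under the same 3 alternatives, 298 with only the 4 libraries compared, and 97 to 478 with a library left out, lowest without processes control replicate 1, where leaving out processes PTX replicate 1 or 2 gave 164 or 172. Between compartments, library size only called 13462 genes in control cultures (191 higher and 13271 lower, against 3688 and 3135) and 13499 in PTX cultures (181 and 13318, against 3680 and 3441), and upper quartile scaling gave 2750 higher and 4704 lower, and 2904 and 4768. Library size only also moved the split of PTX in somata from 299 higher and 214 lower to 351 and 140. For the interaction 4 genes were called with the likelihood ratio test, 4 with DESeq2, 10 with no filter and 15 with the block. Apart from the calls named in the text, the block changed no call of a member. Leaving out mitochondrial genes before scaling, an alternative chosen after seeing the data, changed no call of a member. Shares per transcript length were not run. Depth was lowest for Cacnb2 in processes, with 47 to 73 reads per library and a 95% interval of its PTX log2 fold change from -0.32 to 0.61.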
